A study of Mus musculus with 10 samples.

Results

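The major urinary protein (Mup) genes were described in liver tumours and livers of male mice with and without MLK3. Members were every gene whose symbol is Mup or Mup-ps followed by a number, which gave 49 of the 39056 genes in the count table. Of these, 22 are annotated as protein-coding Mup genes and 27 as Mup-ps pseudogenes. Major urinary proteins are small lipocalins, barrel-shaped carrier proteins that the liver secretes and the kidney passes into the urine, where they bind and slowly release volatile odorants. Adult male mice make large amounts of them, and transcription in the hepatocyte is driven by the pulses of growth hormone that are typical of males, through the growth hormone receptor and the transcription factor STAT5b. Mup20 encodes darcin, the male pheromone protein that attracts females.

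All mice were C57BL/6 and 11 months old. MLK3 is a mixed-lineage protein kinase encoded by Map3k11. KO tumours (3 libraries) were liver tumour tissue of MLK3-KO mice that received the tumour initiator DEN once, at 5 µg per g body weight and 2 weeks of age, and from 1 week later drank water with the tumour promoter PB at 0.05%. WT tumours (3 libraries) came from wild-type mice treated in the same way. KO livers (2 libraries) and WT livers (2 libraries) came from MLK3-KO and wild-type mice that drank water only. Every tumour was thus from a treated mouse and every liver from an untreated one, so the effect of the tumour and that of the treatment cannot be told apart. Which part of Map3k11 is deleted is not in the labels, nor is how tumour was separated from the liver around it. The design text calls the libraries biological replicates. Each library was a 3' tag library, in which a transcript is counted near its end, so counts do not grow with transcript length. Map3k11 had 81 to 147 counts in the 5 KO libraries and 126 to 237 in the 5 WT libraries. Where its tag lies relative to the deletion is not given, so this checks no label.

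Library totals were 12408749 to 18081487 counts. The second KO tumour library stood apart from the other tumours in tumour markers. It had 55 counts of Afp and 7 of Gpc3, both oncofetal genes of liver tumours, against 5791 and 2337 of Afp and 608 and 678 of Gpc3 in the other KO tumours, and 2000 to 8684 of Afp and 5444 to 8469 of Gpc3 in WT tumours. KO livers had 4 and 111 counts of Afp and WT livers 48 and 55. The summed level of 7 tumour and oncofetal markers was 16.5 CPM (read counts scaled to library size) in this library, within the 9.97 to 29.2 CPM of the livers, so whether it holds tumour tissue is in doubt. It is counted as a KO tumour after its label. The family sum, the counts of called members and the main members are also given without it. So are the lists of regulators and of male-biased and female-biased genes, but not the other gene lists. Markers of salivary, lacrimal and mammary gland, other tissues that make major urinary proteins, were at 0 in all 10 libraries for 6 of 6 genes.

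The genes lie together. On the mouse genome build GRCm38, 48 members sit on chromosome 4 between positions 59956804 and 62150863, a span of 2.19 Mb, and Mup-ps22 is a processed pseudogene on chromosome 11. At least 1 count was found for 40 members, including all 22 coding genes, and 35 members passed the filter on low counts (21 coding genes and 14 pseudogenes). Mup13 and 13 pseudogenes did not pass and were not tested. The coding members fall into 2 kinds by how far their tags are their own. Transcripts were cut into overlapping windows of 50 bases over their last 400 bases, the stretch that 3' tags sample. For Mup3, Mup4, Mup5, Mup6, Mup20 and Mup21, here called the divergent members, 66.1 to 98.9% of windows were found in no other annotated transcript. For the other 16 coding members this share was 0 to 40.5%, and 9 of them, Mup19, Mup14 and Mup15 among them, had no window of their own. Identity over the whole coding sequence with Mup19, the member with most counts, was 83.1 to 90.8% for the divergent members. The annotated coding sequence of Mup7, Mup8, Mup9 and Mup13 is longer, at 705 bases against 540 in Mup19. Bases without a partner count as differences, and identity was 75.7 to 76.5% for those members. For the rest of the other 16, besides Mup19, it was 99.1 to 99.8%. How multi-mapping reads were counted is not given in the labels, so counts of these 16 members and of most pseudogenes are uncertain one by one, and their sum is the firmer value.

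A stretch of 60 coding bases shows members of both kinds. Capitals mark bases that differ from Mup19. These sequences are from the minus strand of GRCm38, at chr4:62053530-62053589 for Mup20, chr4:62086850-62086909 for Mup3, chr4:61781641-61781700 for Mup19 and chr4:61303372-61303431 for Mup14, each within 1 coding exon. They are shown because Mup20, Mup3 and Mup19 changed by different amounts in WT tumours.
Mup20: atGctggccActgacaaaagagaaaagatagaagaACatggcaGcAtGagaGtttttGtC
Mup3: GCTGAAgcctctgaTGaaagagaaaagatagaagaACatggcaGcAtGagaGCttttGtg
Mup19: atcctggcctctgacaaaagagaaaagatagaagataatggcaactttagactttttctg
Mup14: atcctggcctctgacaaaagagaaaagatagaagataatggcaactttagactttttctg
Mup20 differed from Mup19 at 10 of the 60 bases and Mup3 at 16. Mup21 had the same 60 bases as Mup3. Mup14, Mup15 and Mup11 had 0 differences from Mup19 here.

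In livers of either genotype and in KO tumours the family made up a large part of all messenger RNA counted, and in WT tumours very little. Members together took 8.50, 9.74 and 6.38% of counts in KO tumours, against 0.433, 0.145 and 0.632% in WT tumours, 9.58 and 12.6% in KO livers and 13.4 and 14.3% in WT livers. The mean was 8.21% ± 1.70 in KO tumours (SD, n = 3), 0.403% ± 0.245 in WT tumours (n = 3), 11.1% ± 2.16 in KO livers (n = 2) and 13.9% ± 0.599 in WT livers (n = 2). WT tumours lay far below every other library, and KO tumours overlapped KO livers narrowly, since the second KO tumour library was above 1 of the 2 KO livers. In bulk tissue, fewer cells of a type and less RNA per cell cannot be told apart. The summed level of hepatocyte markers was 139609 to 187018 CPM in WT tumours, against 83236 to 89383 CPM in WT livers. That sum weighs each marker by its level. Of 17 markers tested, 11 had a negative log2 fold change in WT tumours (median -0.29). Their part in the Mup result was not tested. Without the second library, KO tumours had a mean of 7.44% (n = 2).

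**Figure D1:**
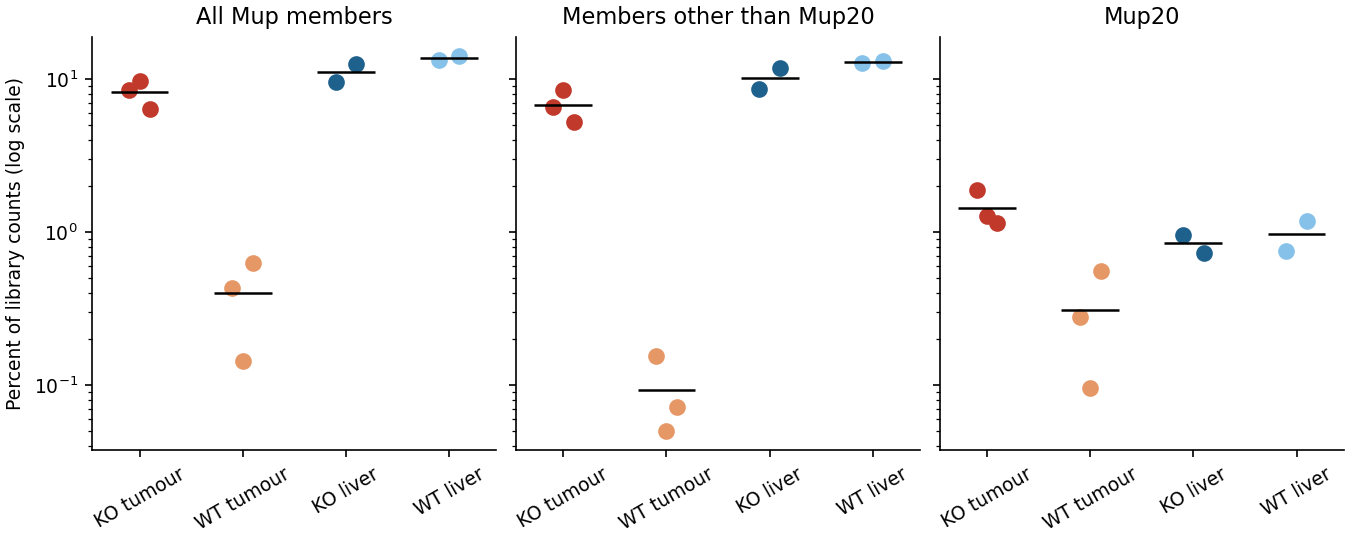
Percent of library counts (log scale) for all Mup members, for members other than Mup20, and for Mup20 alone, by group; points are libraries and lines are group means. WT tumours lie at 0.145 to 0.632% for the family, against 6.38 to 9.74% in KO tumours, and the gap is wider for members other than Mup20 than for Mup20.

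Tumours of WT mice were compared with WT livers first, since this is the effect of tumour and treatment with MLK3 present. On the scale of TMM-scaled CPM, used for all levels below, the summed family was at 3740, 1431 and 5748 CPM in WT tumours, against 149593 and 157161 CPM in WT livers. The sum fell 42.1-fold (log2 fold change -5.40, SE 0.44, edgeR adjusted p = 3.97e-06). Of the 35 members tested, 27 were lower past an adjusted p of 0.05 and 0 higher, where 4.7% of all genes tested were lower and 3.64% higher. They were 18 of 21 coding members and 9 of 14 pseudogenes. The median log2 fold change over the 35 was -7.30, or -7.03 with members that had no count in WT tumours set at their bound, against 0.09 over all genes tested. The groups did not overlap for 32 members, all lower in WT tumours, where 17.6% of all genes were lower without overlap.

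Of the 15 other coding members tested, 14 were lower in WT tumours, with log2 fold changes of -9.42 (Mup7) to -6.49 (Mup16), and Mup8 was not called (-4.19, adjusted p = 0.0845). Mup19, the most counted member, was at 408, 146 and 175 CPM in WT tumours, against 53461 and 54878 CPM in WT livers. That is a 223-fold fall (log2 -7.80, SE 0.47, adjusted p = 1.33e-07). The log2 fold change was -7.72 for Mup14 (SE 0.60), -8.33 for Mup15 (SE 0.63) and -8.58 for Mup11 (SE 0.64), each with an adjusted p of 1.07e-06 or less. Among pseudogenes, it was -7.82 for Mup-ps17 (SE 0.51, adjusted p = 2.17e-07) and -5.68 for Mup-ps22, the copy on chromosome 11 (SE 0.45, adjusted p = 1.28e-06). Of the windows in Mup-ps17, 39.6% were its own, and in Mup-ps22 92.8%. Mup2 and Mup-ps2 had no count in any WT tumour, against a mean of 4.69 and 11.0 CPM in WT livers. With 3 counts per library as the floor, they were at least 24.8-fold and at least 58.3-fold lower.

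Of the 6 divergent members, 4 were lower, with log2 fold changes of -7.29 (Mup6) to -1.94 (Mup20). Mup3, the most counted of them after Mup20, was at 206, 65.2 and 210 CPM in WT tumours, against 7011 and 6088 CPM in WT livers, and fell 40.8-fold (log2 -5.35, SE 0.43, adjusted p = 1.47e-06). Mup21, the nearest relative of Mup3, was at 4.17, 5.32 and 3.91 CPM in WT tumours, against 124 and 169 CPM in WT livers, and fell 32.9-fold (log2 -5.04, SE 0.29, adjusted p = 6.88e-08). Mup6 fell 157-fold. The genes at low level gave no call: Mup4 was at 0.104, 0.655 and 0.192 CPM in WT tumours, against 2.32 and 3.22 CPM in WT livers (log2 -3.11, SE 1.41, adjusted p = 0.213). Mup5 was at 1.15, 0 and 0.257 CPM in WT tumours, against 3.14 and 5.17 CPM in WT livers (log2 -3.10, SE 1.24, adjusted p = 0.154). For both, every WT tumour lay below both WT livers. The other members not called were Mup8 and 5 pseudogenes at low level.

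Mup20 stood out by its small fall. It was at 2400, 940 and 5095 CPM in WT tumours, against 8427 and 13123 CPM in WT livers. Each WT tumour was below both livers, but the fall was 3.83-fold (log2 -1.94, SE 0.47, adjusted p = 0.0164), against a median over members near -7. In livers Mup19 had several times as many tags as Mup20, and in each WT tumour Mup20 had more than Mup19. The call for Mup20 rested on single libraries: the adjusted p was 0.097 without the second WT liver (log2 -1.59), 0.0647 without the first WT tumour (log2 -1.84) and 0.0612 when only these 2 groups were fitted. Leaving out 1 library at a time, the log2 fold change ran from -2.71 to -1.54.

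**Figure D2:**
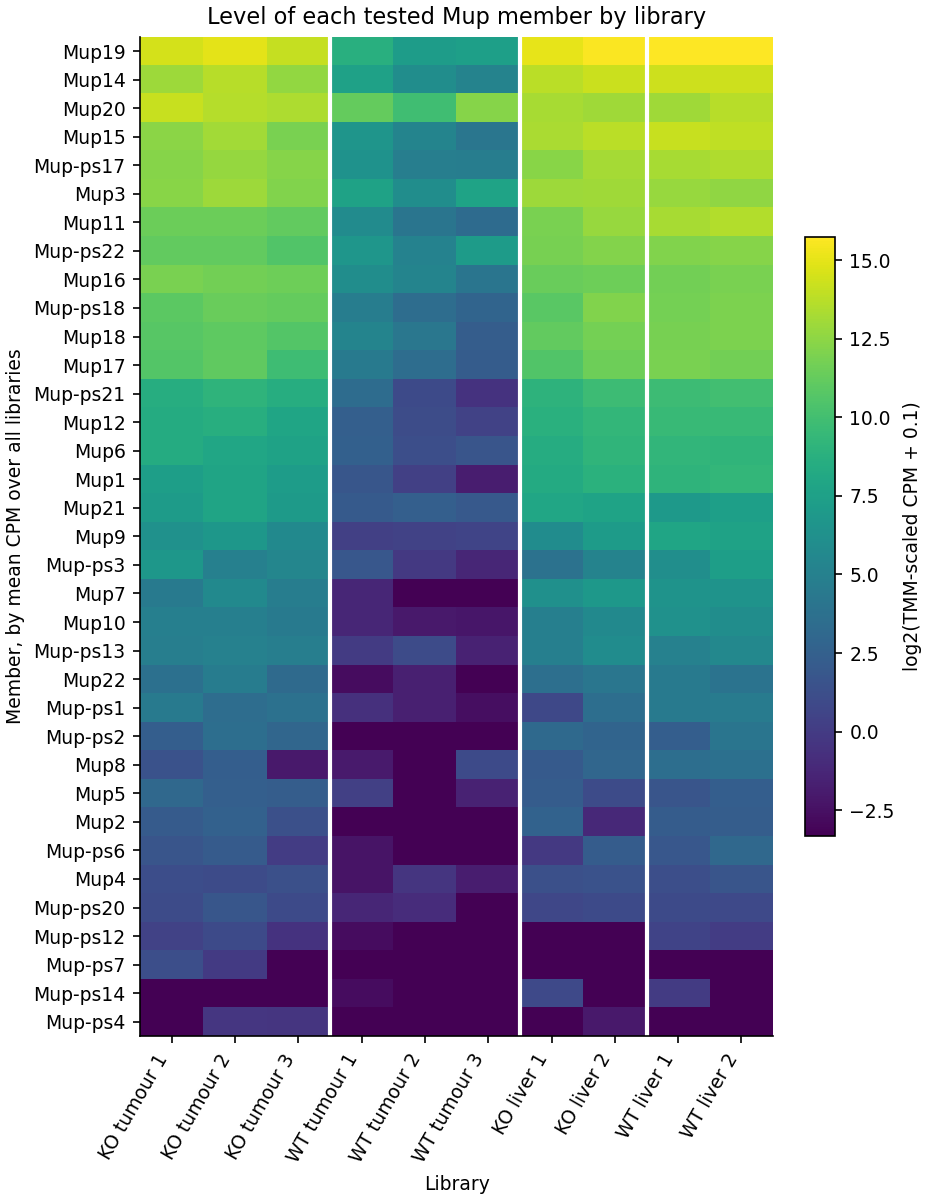
Level of the 35 tested members (rows, by mean level) in the 10 libraries (columns), as log2 of scaled CPM plus 0.1. The WT tumour columns are darker than the rest for members with a high level elsewhere. Among those members, the difference is smallest for Mup20, at 940 to 5095 CPM in WT tumours.

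KO tumours were then compared with KO livers, the same contrast without MLK3. The summed family was at 81288, 98322 and 60984 CPM in KO tumours, against 99041 and 140075 CPM in KO livers. Every KO tumour was below both KO livers on this scale, but the difference did not pass the test (log2 -0.58, SE 0.39, edgeR adjusted p = 0.643). Without the second KO tumour library it was -0.75 (SE 0.43, adjusted p = 0.535). Of the 35 members, 0 were called higher or lower by edgeR, where 0.0759% of all genes were called. At an unadjusted p under 0.05 there were 6 (5 lower and Mup-ps12 higher, a pseudogene with no count in KO livers), and DESeq2 called 1. The median log2 fold change was -0.48, against 0.06 over all genes. The groups did not overlap for 12 members lower in KO tumours and 4 higher, where 12.4% of all genes were lower and 14.3% higher without overlap.

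Single members followed this. Mup19 was at 23472, 31678 and 16882 CPM in KO tumours, against 33419 and 51789 CPM in KO livers, all tumours below both livers (log2 -0.83, SE 0.38, adjusted p = 0.508). Mup14 had a log2 fold change of -0.86 (SE 0.48), Mup15 of -0.99 (SE 0.50), Mup11 of -1.05 (SE 0.50) and Mup-ps22 of -1.01 (SE 0.39), with adjusted p-values of 0.409 to 0.578. Mup3 was at 5175, 7762 and 4401 CPM in KO tumours, against 7979 and 8183 CPM in KO livers (log2 -0.48, SE 0.38, adjusted p = 0.701). Mup20 went the other way. It was at 18071, 12822 and 11030 CPM in KO tumours, against 9891 and 8163 CPM in KO livers, so all 3 tumours were above both livers, without passing the test (log2 0.63, SE 0.48, adjusted p = 0.685). Mup16 was also above in all KO tumours (log2 0.27, SE 0.37, adjusted p = 0.875). Without the second KO tumour library, the log2 fold change was -1.08 for Mup19 (adjusted p = 0.29), -0.75 for Mup3 (adjusted p = 0.502) and 0.69 for Mup20 (adjusted p = 0.659), and 0 of 33 members tested were called, with 10 at an unadjusted p under 0.05.

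**Figure D3:**
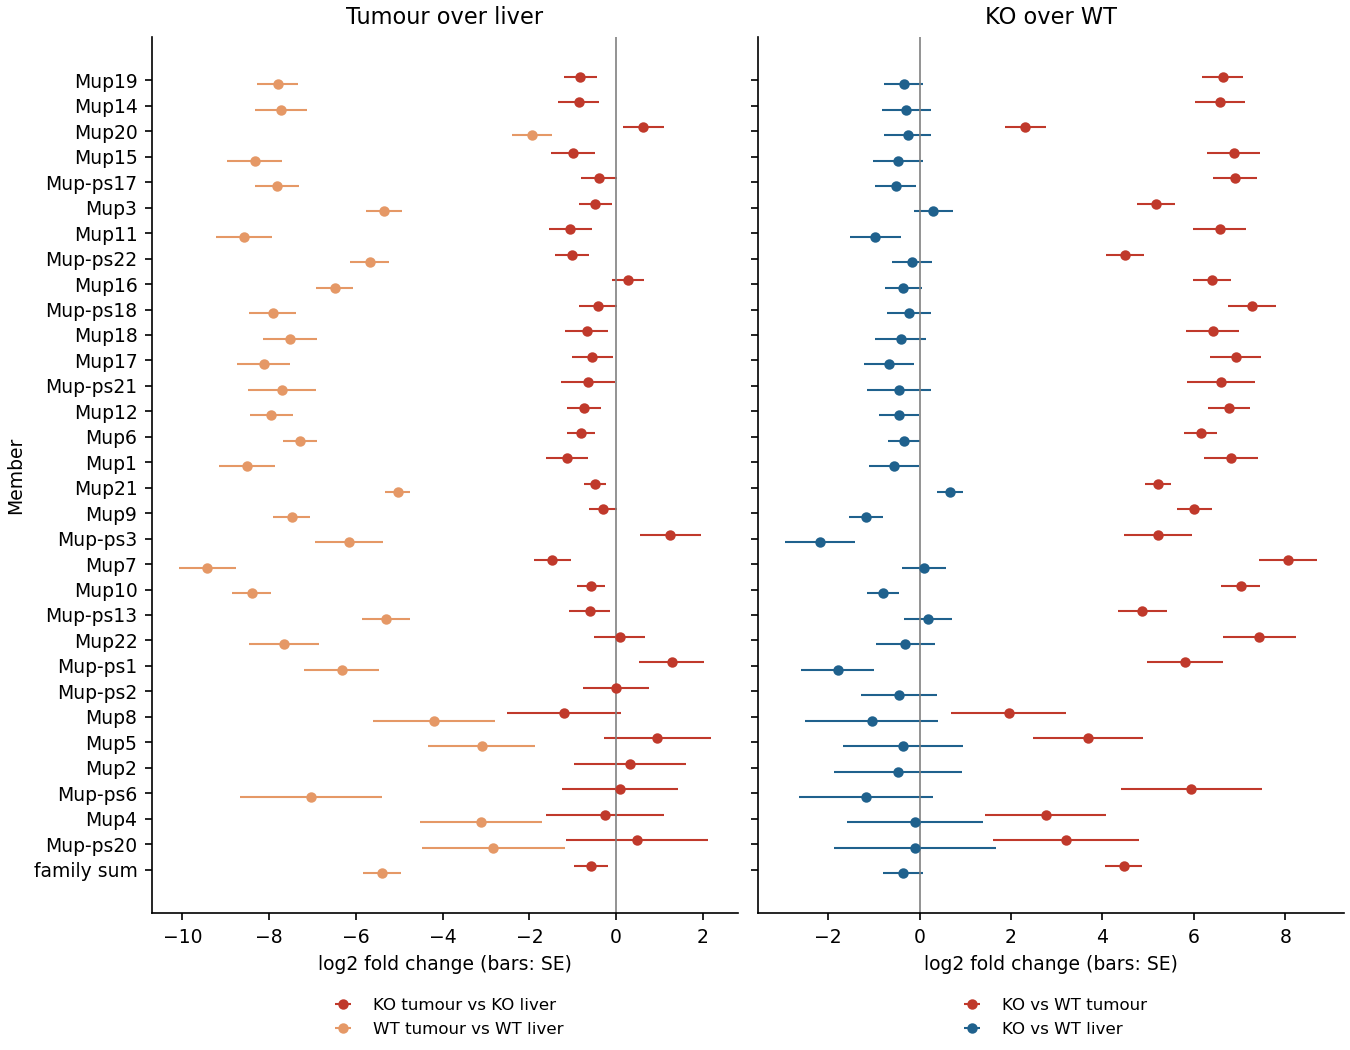
log2 fold changes with SE for members with a mean of at least 1 CPM and for the family sum, for tumour over liver in KO and WT mice (left) and for KO over WT in tumours and livers (right); members with no count in a group are not drawn for that comparison. WT tumour over WT liver lies near -8 for most members and at -1.94 for Mup20. KO tumour over KO liver lies between -1.47 (Mup7) and 1.28 (Mup-ps1), with a median of -0.48 over all 35 members tested.

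The difference between the 2 contrasts was tested as an interaction, the log2 fold change of KO tumours over KO livers minus that of WT tumours over WT livers. For the family sum it was 4.82 (SE 0.59, edgeR adjusted p = 0.000768), and 4.65 (adjusted p = 0.00166) without the second KO tumour library. Past the threshold, 24 of 35 members (24 of 33 without that library) had a positive interaction and 0 a negative one, where 1.22% of all genes were positive and 0.367% negative. Among the 8 members with the highest mean level, the largest values were those of Mup11 (7.53), Mup-ps17 (7.42) and Mup15 (7.34). For Mup3 it was 4.87 (SE 0.58, adjusted p = 0.00026) and for Mup21 4.55 (SE 0.39, adjusted p = 1.4e-05). Mup20 had an interaction of 2.57 (SE 0.68), which did not pass (adjusted p = 0.0802). That value crossed the threshold in other fits, among them those without WT tumour replicate 3 (3.35, adjusted p = 0.00629), without WT tumour replicate 2 (2.18, adjusted p = 0.0469) and without WT liver replicate 1 (2.86, adjusted p = 0.0494).

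Set side by side within tumours, KO and WT differed widely. The family sum was 22.0-fold higher in KO tumours than in WT tumours (log2 4.46, SE 0.41, edgeR adjusted p = 1.58e-05). Without the second KO tumour library it was 4.29 (adjusted p = 4.83e-05). Of 35 members, 27 were higher in KO tumours and 0 lower, where 3.25% of all genes were higher and 1.27% lower, and 26 were called higher without that library. The median log2 difference was 6.40, or 5.98 with members at 0 in WT tumours set at their bound, against -0.03 over all genes. Libraries of the 2 groups did not overlap for 31 members, all higher in KO tumours, where 12.2% of all genes were higher without overlap. Mup19 was 98.8-fold higher (log2 6.63, SE 0.44), Mup3 36.0-fold (log2 5.17, SE 0.41) and Mup21 37.3-fold (log2 5.22, SE 0.28). Mup20 was 4.97-fold higher (log2 2.31, SE 0.44, adjusted p = 0.00541), with log2 values of 1.92 to 3.10 when 1 library at a time was left out. Without the second KO tumour library, the log2 difference was 6.38 for Mup19, 4.90 for Mup3, 4.97 for Mup21 and 2.37 for Mup20, all called. KO tumours and WT tumours are the same libraries as in the contrasts above, so these are not separate evidence.

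In untreated liver no member passed the test between genotypes. The family sum was 99041 and 140075 CPM in KO livers, against 149593 and 157161 CPM in WT livers, so both KO livers were lower (log2 -0.36, SE 0.43, edgeR adjusted p = 0.935). Of 35 members 0 were called, by edgeR or by DESeq2, where 0.00632% of all genes were called, and 6 had an unadjusted p under 0.05. The groups did not overlap for 18 members lower in KO livers and 2 higher, where 15.5% of all genes fell in each direction. The 2 higher were Mup3 and Mup21, the pair with the same 60 bases, named after their values were seen. Mup21 was at 247 and 218 CPM in KO livers, against 124 and 169 CPM in WT livers (log2 0.67, SE 0.28, unadjusted p = 0.0327, adjusted p = 0.678). Among members lower, Mup9 was at 60.8 and 138 CPM in KO livers, against 240 and 207 CPM in WT livers (log2 -1.17, SE 0.37, unadjusted p = 0.00661, adjusted p = 0.542).

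The mix of members within the family changed with its level. Mup20 gave 22.2, 13.0 and 18.1% of Mup counts in KO tumours, against 64.2, 65.6 and 88.5% in WT tumours, 9.99 and 5.83% in KO livers and 5.64 and 8.35% in WT livers. WT tumours were thus apart from all other libraries, and KO tumours were above both livers of each genotype. The KO tumour mean for Mup20 was 20.2% without the second library (n = 2). Mup19 gave 29.6% ± 2.35 in KO tumours (SD, n = 3), 8.05% ± 4.35 in WT tumours (n = 3), 35.4% ± 2.30 in KO livers (n = 2) and 35.3% ± 0.61 in WT livers (n = 2). Mup3 gave 7.16% in KO tumours, 4.57% in WT tumours, 6.95% in KO livers and 4.28% in WT livers (group means). Single libraries ran from 3.64 to 8.06% for Mup3. These are percents of a total that Mup20 dominated in WT tumours. Pseudogenes gave 13.4% ± 1.94 in KO tumours, 4.90% ± 1.67 in WT tumours, 12.7% ± 1.58 in KO livers and 13.1% ± 0.632 in WT livers.

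The 6 divergent members together gave 25.5% ± 3.91 of Mup counts in KO tumours, 77.7% ± 12.7 in WT tumours, 15.5% ± 4.54 in KO livers and 11.8% ± 1.33 in WT livers. Every WT tumour was above every other library. The exact two-sided permutation test gave p = 0.2 for WT tumours against WT livers and for KO tumours against KO livers, 0.1 for KO against WT tumours and 0.667 for KO against WT livers; the smallest p the group sizes allow is 0.2, 0.1 and 0.333, so none of them could reach 0.05. With Mup20 left out of both the divergent members and the total, an alternative added after the values were seen, the share was 9.38% ± 0.357 in KO tumours, 21.3% ± 10.0 in WT tumours, 8.23% ± 2.00 in KO livers and 5.12% ± 0.519 in WT livers. It was 16.2, 14.9 and 32.9% in the WT tumours, each above every other library. Members other than Mup20 took 6.77% ± 1.63 of all counts in KO tumours, 0.0925% ± 0.0555 in WT tumours, 10.3% ± 2.32 in KO livers and 12.9% ± 0.291 in WT livers. Their sum fell by 7.42 on the log2 scale in WT tumours (adjusted p = 1.07e-07), more than the whole sum, an alternative added after the values were seen.

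**Figure D4:**
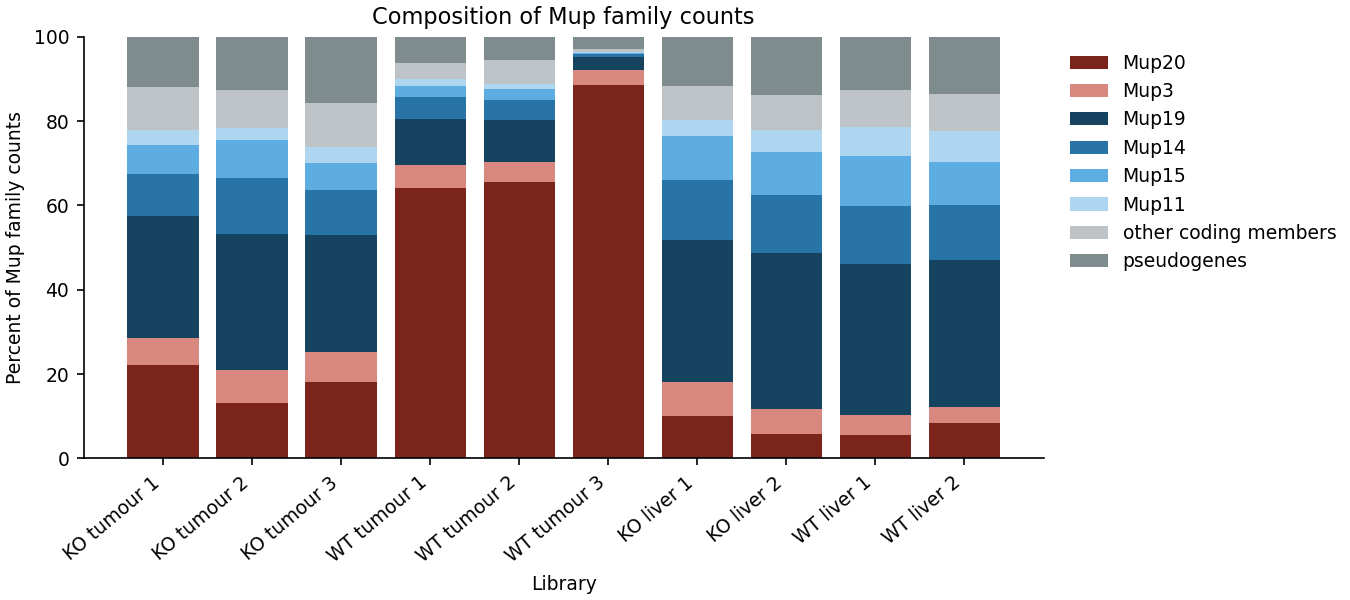
Percent of Mup family counts from Mup20, Mup3, Mup19, Mup14, Mup15, Mup11, other coding members and pseudogenes, 1 bar per library. Mup20 takes 64.2 to 88.5% in WT tumours, against 13.0 to 22.2% in KO tumours and 5.64 to 9.99% in livers.

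The low Mup level in WT tumours did not extend evenly to the genes around the cluster. Within the cluster or 500 kb of it lie 27 other genes, of which 20 were tested. In WT tumours 4 were lower than in WT livers and 0 higher (4.7% and 3.64% of all genes), and their median log2 fold change was -0.10. Inside the cluster, 2 of 3 tested were lower: Gm13775, a processed transcript next to Mup19 that spans Mup-ps16, had 2, 0 and 0 counts in WT tumours, against 483 and 664 in WT livers, and Gm13773, next to Mup1 and spanning Mup-ps6, had 2, 0 and 0 counts, against 215 and 271. The other gene tested inside, the pseudogene Gm21286, had 0 counts in every WT tumour, against 38 and 14 in WT livers, and was not called (adjusted p = 0.114). The strand setting of the counting is not given, so reads of overlapping genes cannot be told apart. In KO tumours, Gm13775 had 334, 678 and 325 counts, against 328 and 214 in KO livers. Outside it, 2 of 17 were lower. Hsdl2, a gene for a hydroxysteroid dehydrogenase-like protein, fell by 1.27 (adjusted p = 0.0111) on the log2 scale, and Hdhd3, a hydrolase-domain gene, had a log2 fold change of -1.81 (adjusted p = 0.0151). Alad, which encodes an enzyme of haem synthesis, had a log2 fold change of -0.56 (adjusted p = 0.155).

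**Figure D5:**
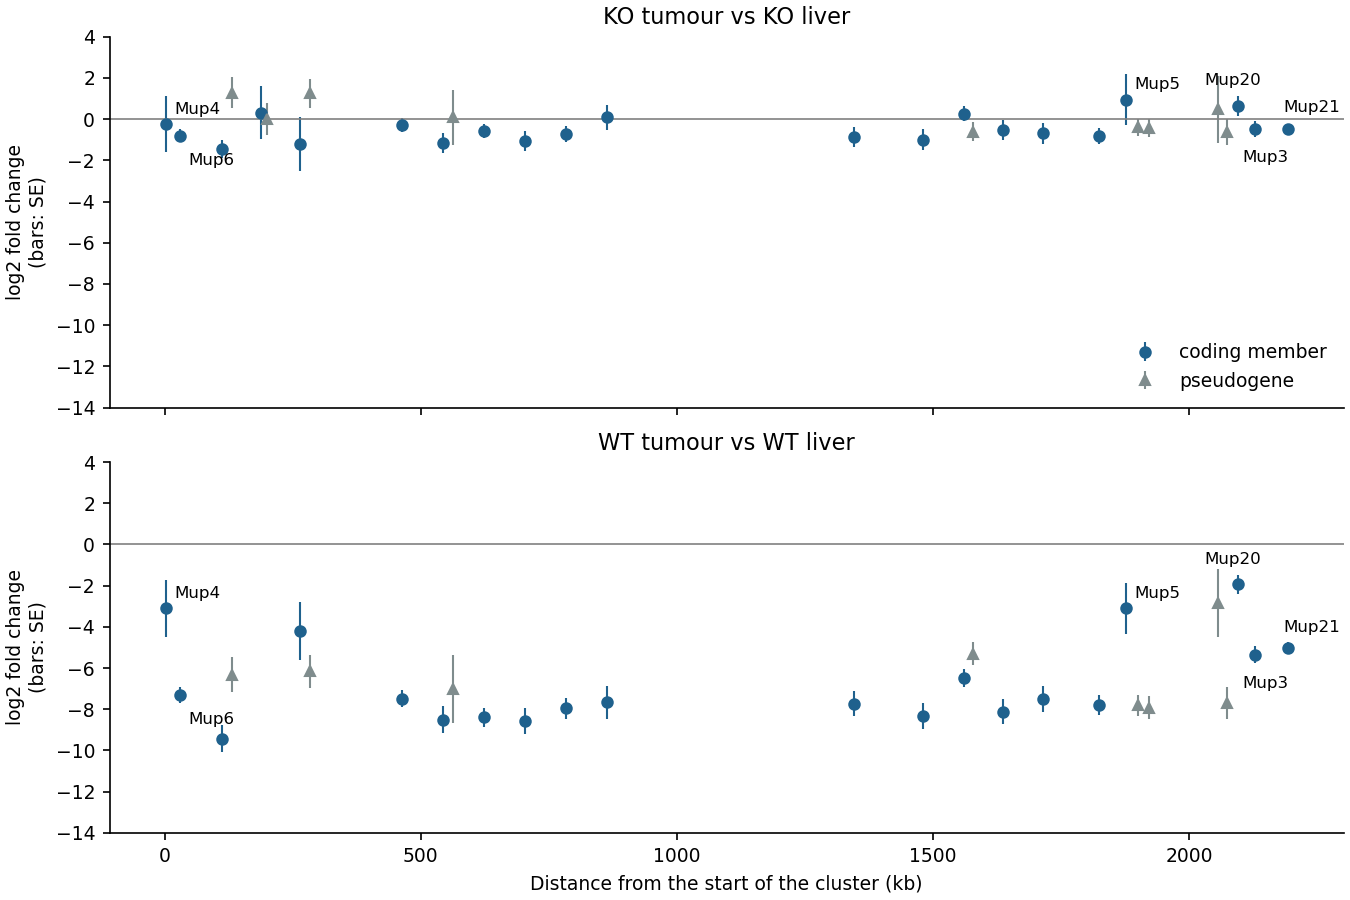
log2 fold change with SE of members on chromosome 4 with a mean of at least 1 CPM, by distance from the start of the cluster, for KO tumours over KO livers (top) and WT tumours over WT livers (bottom); members with no count in a group are left out. In WT tumours most members lie near -8. Mup20 lies at -1.94, beside Mup3 (-5.35) and Mup21 (-5.04) at the far end. Other members with a fall smaller than most include Mup4 (-3.11) and Mup8 (-4.19) toward the near end. Mup-ps13 (-5.30) and Mup5 (-3.10) lie further along, and Mup-ps20 (-2.83) lies close to Mup20.

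Promoter sequences, 250 bases before to 50 after the annotated start, were found for 14 of 22 coding members in RefSeq (GRCm38.p6), and not for Mup1, Mup5, Mup8, Mup12, Mup13, Mup16, Mup20 and Mup22. Both strands were searched for 3 motifs. The TATA box spelled TATATAA was in 13 of 14, all but Mup7, against 3.2% of 32851 mouse promoters. ATCAAT, the core of the site bound by Onecut (HNF6) factors, was in 14 of 14, against 7.5%. TTCNNNGAA, the STAT5 site, was in 0 of 14, against 8.3%. The 14 promoters belong to the same gene family, so they are not 14 independent matches. Identity with the Mup19 promoter ran from 45.9% (Mup7) to 96.4% (Mup9). It was 90.3% or more for Mup2, Mup9, Mup10, Mup15, Mup17 and Mup18. Each promoter was cut at its own annotated start, and these starts do not line up between members. In the Mup19 and Mup3 promoters printed below, TATATAA lies at different distances from the end. An offset of the start thus counts as difference, so a low identity need not mean a different sequence. A motif outside the cut stretch was not counted. A match is a description of the letters only, and the motifs do not overlap in the copies shown. The promoters of Mup19 (minus strand, chr4:61782175-61782474) and Mup3 (minus strand, chr4:62087268-62087567) are printed because both members fell in WT tumours, by different amounts; capitals mark ATCAAT and TATATAA.
Mup19: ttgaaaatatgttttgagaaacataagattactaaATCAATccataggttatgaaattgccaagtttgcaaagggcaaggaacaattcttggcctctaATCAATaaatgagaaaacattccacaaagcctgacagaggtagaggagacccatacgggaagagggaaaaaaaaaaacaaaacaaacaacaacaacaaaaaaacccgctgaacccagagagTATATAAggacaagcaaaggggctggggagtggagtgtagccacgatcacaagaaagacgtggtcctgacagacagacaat
Mup3: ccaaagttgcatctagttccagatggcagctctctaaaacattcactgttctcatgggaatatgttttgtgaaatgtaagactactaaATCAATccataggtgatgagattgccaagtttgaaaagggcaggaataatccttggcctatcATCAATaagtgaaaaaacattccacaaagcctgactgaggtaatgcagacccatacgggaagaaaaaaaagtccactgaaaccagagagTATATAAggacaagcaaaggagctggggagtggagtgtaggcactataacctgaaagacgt

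Regulators of Mup transcription were examined as a list of 26 genes of growth hormone and STAT5 signalling and liver transcription factors, of which 25 were tested. In WT tumours against WT livers, 6 were lower and 2 higher, with a median log2 fold change of -0.71, against 4.7% lower and 3.64% higher over all genes. The same shares of all genes stand against the counts of the lists that follow. Ghr, the growth hormone receptor, was at 90.1, 90.4 and 75.5 CPM in WT tumours, against 419 and 467 CPM in WT livers, and fell 5.19-fold (adjusted p = 4.42e-05). Igf1, the hepatic growth factor induced by growth hormone, fell by 2.61 on the log2 scale (SE 0.26, adjusted p = 1.84e-05), and for Igfals, its carrier subunit in plasma, the log2 fold change was -2.69 (SE 0.37, adjusted p = 0.00025). It was -1.74 for Prlr, the prolactin receptor (SE 0.38, adjusted p = 0.00899) and -1.07 for Stat5b (SE 0.29, adjusted p = 0.0303). Lepr, the leptin receptor, rose (log2 7.29, SE 1.68, adjusted p = 0.0128). In KO tumours against KO livers 0 of 25 were called by edgeR, and 2 had an unadjusted p under 0.05. Ghr was at 320, 574 and 302 CPM in KO tumours, against 437 and 431 CPM in KO livers (log2 -0.12, SE 0.26, adjusted p = 0.933). Leaving out the second KO tumour library, 0 of 25 were called, 5 had an unadjusted p under 0.05, and the value for Ghr was -0.48 (adjusted p = 0.37). Transcription factors tied to male or female patterns in liver were not called in WT tumours: Bcl6 had a log2 fold change of -2.41 (SE 0.93, adjusted p = 0.136), Cux2 of 1.36 (SE 1.07, adjusted p = 0.505), Onecut1 of 0.37 (SE 0.92, adjusted p = 0.886) and Hnf4a of -0.71 (SE 0.22, adjusted p = 0.0582). The interaction was past the threshold for Ghr (2.25, adjusted p = 0.00519) and Igf1 (2.34, adjusted p = 0.00381), and not for Stat5b (0.70, adjusted p = 0.533).

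Other male-biased liver genes, 25 of them and all tested, went the same way as Mup. In WT tumours 21 were lower than in WT livers and 0 higher (median log2 -3.32). In KO tumours against KO livers 0 were called, with 4 at an unadjusted p under 0.05 (median -0.39), although their summed level was 8781 to 11657 CPM in KO tumours, against 19178 to 19524 CPM in KO livers. KO tumours were higher than WT tumours for 20 and lower for 0. Without the second KO tumour library, 0 were called against KO livers, with 8 at an unadjusted p under 0.05 (median -0.62), and 19 were higher than in WT tumours. Elovl3, a fatty acid elongase, fell 149-fold in WT tumours, and Cyp4a12b, an arachidonic acid hydroxylase, 91.0-fold. Female-biased genes went the other way in WT tumours: of 16 tested, 6 were higher and 0 lower, among them Cyp2a4, a steroid hydroxylase, at 2228, 1568 and 1923 CPM in WT tumours, against 24.0 and 42.4 CPM in WT livers. KO tumours had 378, 91.1 and 544 CPM of Cyp2a4, against 53.5 and 113 CPM in KO livers (adjusted p = 0.196). Cyp2b9 was the 1 gene of this list called in KO tumours against KO livers (5.09, 5.45 and 15.3 CPM, against 0 and 0; adjusted p = 0.00682). In the fit without the second KO tumour library, 4 were called higher, Cyp2a4 among them (log2 2.47, SE 0.37, adjusted p = 0.00365).

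Other lipocalins and secreted transport proteins did not share the fall. Of 19 tested, 5 were higher and 2 lower in WT tumours than in WT livers. Apom, a lipocalin of high-density lipoprotein, was at 736, 713 and 791 CPM in WT tumours, against 234 and 230 CPM in WT livers. Orm1, an acute-phase lipocalin, fell 3.62-fold (adjusted p = 0.00284). Alb, the plasma albumin gene, rose by 1.21 on the log2 scale (adjusted p = 0.0031). Hepatocyte markers, which share Alb and Ahsg with that list, were 5 higher and 3 lower of 17 tested in WT tumours (median log2 -0.29). Their summed level was 79161 to 93457 CPM in KO tumours, 139609 to 187018 CPM in WT tumours, 91537 to 94059 CPM in KO livers and 83236 to 89383 CPM in WT livers, so it was not lower in WT tumours. The 7 cholangiocyte markers summed to 52.1 to 282 CPM in KO tumours, the lowest being the second library. They summed to 266 to 505 CPM in WT tumours, 59.6 to 75.9 CPM in KO livers and 89.8 to 120 CPM in WT livers. Their part in the Mup result was not tested. The 7 tumour and oncofetal markers summed to 16.5 to 3108 CPM in KO tumours, the lowest being the second library, 1691 to 2177 CPM in WT tumours, 21.4 to 29.2 CPM in KO livers and 9.97 to 12.3 CPM in WT livers. The other KO tumours summed to 3108 and 607 CPM of these markers, and had 8.50 and 6.38% of their counts from Mup genes.

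The 8 other genes whose level over the 10 libraries was most like that of the family sum, by Pearson correlation of log2(CPM + 1) among 7169 genes with a mean of at least 10 CPM, were Slco2b1 (r = 0.994), Glul, Ddc, Ces3a, Paqr9, Cyp7b1, C6 and Adh6-ps1 (r = 0.989). Genes without a symbol, and those with symbols of the Gm or Rik type and similar ones, were not among the 7169. The points share the 4 groups and the library scaling, so r follows the gap between WT tumours and the rest. Glul, the glutamine synthetase of hepatocytes next to the central vein, was at 783, 932 and 780 CPM in KO tumours, against 119, 55.5 and 102 CPM in WT tumours, 907 and 1088 CPM in KO livers and 1159 and 1502 CPM in WT livers. Cyp7b1, a male-biased oxysterol hydroxylase, was at 180, 216 and 126 CPM in KO tumours, against 3.59, 3.13 and 8.34 CPM in WT tumours, 224 and 323 CPM in KO livers and 408 and 315 CPM in WT livers. C6, a complement component, was at 171 CPM ± 17.8 in KO tumours (SD, n = 3), 21.3 ± 9.82 in WT tumours (n = 3), 253 ± 40.2 in KO livers (n = 2) and 273 ± 12.0 in WT livers (n = 2).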

How the data were processed

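The authors deposited 1 table with whole-number counts of reads for every gene, not normalized, covering the 10 libraries. Libraries were made from 50 ng of total RNA with the strand-specific QuantSeq 3' forward kit, per the labels' protocols. BWA, featureCounts and the mm10 build were named in the submitters' processing notes. Tool versions, the annotation release and the setting for strand are not given in those notes, nor is the handling of multi-mapping reads. Identifiers were matched to symbols without their version (38872 matched, 184 did not). Positions, transcripts and coding sequences are from GENCODE M21 on GRCm38, the same assembly as mm10.

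The deposited counts went into edgeR 4.0.16 (R 4.3.3): filterByExpr kept 15811 genes, TMM scaled the libraries, and a quasi-likelihood fit had the 4 groups as its terms over all 10 libraries, because groups of 2 say little about spread alone. A gene was called at a Benjamini-Hochberg adjusted p under 0.05. The biological coefficient of variation was 71.8%. The family sum replaced its members as 1 row of the same table (15777 rows). DESeq2 1.42.0 was an alternative. An SE is the log2 fold change divided by the root of its F statistic. The fit was tested on simulated counts. A count of 0 was bounded by 3 counts per library (0.166 to 0.242 CPM), which covers counting error only; a count is a read, not a molecule. Chi-square values between replicates, 39.8 to 94.9 per degree of freedom, showed no library deposited again. Every column of the table was used.

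Members, gene lists and tests were chosen with earlier results of these data known. Named genes were the family sum, the 8 members with the highest mean CPM, Mup3, Mup4, Mup5, Mup20 and Mup21, up to 3 genes with the smallest p per list, and the 8 genes most like the family; others were named after their values were seen. Replicate numbers do not pair libraries: over 13 pairs with the same number, deviations correlated at -0.081 to 0.098. 1 gene of the regulator list is counted but not reported here by name.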

Additional observations from a re-analysis of the deposited data

Results flagged for a closer look

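Tumour over liver differed between KO and WT mice, by the interaction term of the edgeR fit with its adjusted p under 0.05, for the family sum and 8 of the members named by rule. The interaction, as a log2 value, was 4.82 for the family sum, 6.97 for Mup19, 6.86 for Mup14, 7.34 for Mup15, 7.53 for Mup11, 7.42 for Mup-ps17, 4.66 for Mup-ps22, 4.87 for Mup3 and 4.55 for Mup21. Each is positive, which means that the member was less reduced, relative to liver of its own genotype, in KO tumours than in WT tumours.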

How the results depend on the processing

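Over 209 alternative values for the family sums, the counts of called members and the share of the divergent members, 200 changed neither side of the threshold nor, for counts and shares, by more than 1.5 times or the replicate SD. Of the other 9, 3 concern counts that were 0: in KO tumours against KO livers, DESeq2 called 1 member lower, and without the low-count filter 6 were called (1 higher, 5 lower); in KO against WT livers, 2 were called lower without the filter. With more low genes in the fit, the spread estimates change; the cause was not tested. Leaving out 1 library at a time, the family sum ran from -0.80 to -0.30 in KO tumours against KO livers, -5.92 to -5.03 in WT tumours against WT livers, -0.63 to -0.14 in KO against WT livers, 4.10 to 4.99 in KO against WT tumours and 4.46 to 5.35 for the interaction, and 25 to 28 members were lower in WT tumours. A group left with 1 library is assumed to vary like the others.

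With replicate number as a block, the family sum was -5.59 in WT tumours against WT livers (adjusted p = 1.51e-05), -0.67 in KO tumours against KO livers and 4.93 for the interaction, and 26 members were lower in WT tumours. The numbers do not pair the libraries, and the block took the interaction of Mup20 past the threshold (2.87, adjusted p = 0.0443). DESeq2 called Mup4 and Mup5 lower in WT tumours than in WT livers (adjusted p = 0.0211 and 0.0318) and higher in KO than in WT tumours (adjusted p = 0.0419 and 0.00383). The remaining 6 are the share of divergent members without Mup20, chosen after the data were seen. With Mup20 out of the total too, the difference in percentage points was -12.0 for KO minus WT tumours (-52.2 with Mup20), 1.15 for KO tumours minus KO livers (10.1 with Mup20) and 16.2 for WT tumours minus WT livers (65.9 with Mup20). With Mup20 still in the total, which it dominates in WT tumours, these were 2.81, 0.171 and 0.137, so the change of sign between KO and WT tumours depends on that total.

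The 2 libraries per liver group limit what small differences can be seen, and reads shared between members limit what can be said of each one.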
